A study of Mus musculus with 12 samples.

Results

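Heat shock proteins and chaperones help other proteins to fold, and their RNA was followed in whole mouse retina, in WT and in 5xFAD, at 1 month and at 6 months of age. The set was defined by gene symbol: protein-coding genes with symbols starting Hspa, Hspb, Hspd, Hspe, Hsph, Hsp90, Dnaja, Dnajb or Dnajc, and the Cct genes with Tcp1. These symbols also take in Hspb11, Hspbap1 and Hspbp1, which are not heat shock proteins by function. It held 83 of the 55487 genes in the count table, and 71 of the 83 had enough counts to test. The remaining 12 (Cct6b, Dnajb7, Dnajb8, Dnajb13, Dnajc5b, Dnajc5g, Dnajc22, Hspa1l, Hspb2, Hspb3, Hspb7 and Hspb9) had between 0 and 71 counts in all 12 libraries together.

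The WT retinas came from C57BL/6J mice and the 5xFAD retinas from mice with the strain label Tg6799. 5xFAD mice carry mutant human transgenes under the neuronal Thy1 promoter and are a model of Alzheimer disease. Each of the 4 groups (WT at 1 month, 5xFAD at 1 month, WT at 6 months, 5xFAD at 6 months) had 3 libraries of polyadenylated RNA. The labels give no other treatment, nor whether libraries are separate animals, and p-values here rest on sample-to-sample spread only, which may be technical. Human transgene RNA was not analysed here.

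Cells meet misfolded protein with a layered system. Hsp70 proteins bind and release unfolded chains in cycles of ATP hydrolysis, J-domain proteins (Dnaja, Dnajb, Dnajc) bring them substrate and trigger the hydrolysis, and Hsp110 proteins exchange the nucleotide. Hsp90 takes over later folding steps, the ring-shaped chaperonin TRiC folds actin and tubulin, and separate Hsp70, Hsp90 and Hsp60 proteins serve the endoplasmic reticulum and the mitochondrion. Heat shock factor 1 drives the cytosolic genes through heat shock elements, and the unfolded protein response drives the reticulum genes through ER stress elements. In the retina, photoreceptors make large amounts of membrane protein in the reticulum, and synapses rely on J-domain proteins for vesicle recycling.

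The promoters were searched for both elements, because several genes that the results turn on carry one of them. Promoter sequence (RefSeq, GRCm38.p6, 250 bases before to 50 after the start) was at hand for 68 of the 83 genes. The ER stress element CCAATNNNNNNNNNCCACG was found, on either strand, in the promoters of 3 of these genes and in 0.137% of all 27025 genes. By promoter it was in 3 of the 87 of these genes and in 0.119% of all 32851. The 3 genes were Hspa5, Hsp90b1 and Dnajc3, and Hsp90b1 held 2 copies in opposite orientations, of which only the one farther from the start is shown. Capitals mark the element, with 30 bases to each side, on the strand of the gene.
Hspa5, chr2:34771995-34772073, plus strand: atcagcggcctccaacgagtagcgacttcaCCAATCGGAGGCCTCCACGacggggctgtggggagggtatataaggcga
Hsp90b1, chr10:86705608-86705686, minus strand: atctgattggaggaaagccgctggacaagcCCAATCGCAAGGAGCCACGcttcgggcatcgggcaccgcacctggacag
Dnajc3, chr14:118937797-118937875, plus strand: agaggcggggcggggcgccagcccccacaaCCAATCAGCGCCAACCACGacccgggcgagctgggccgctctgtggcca

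The heat shock element was searched as GAANNTTCNNGAA on both strands. It was found in 4 of the 68 genes (Dnajb6, Hspd1, Hspe1 and Hsph1) and in 0.662% of all genes. By promoter it was in 6 of 87 and in 0.603% of all promoters. Hspd1 and Hspe1, the mitochondrial Hsp60 and its co-chaperonin, lie head to head on chromosome 1 and share 1 promoter with overlapping copies of the element. Capitals mark the element here too. The match in Hsph1 lies after its start and is not shown. These letters describe the windows and do not show that a factor was bound. Other forms of either element were not searched, nor were the genes without promoter sequence, so a gene without a match may still carry one.
Dnajb6, chr5:29735822-29735894, plus strand: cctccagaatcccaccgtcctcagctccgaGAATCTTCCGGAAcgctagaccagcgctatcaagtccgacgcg
Hspe1, chr1:55088034-55088106, plus strand: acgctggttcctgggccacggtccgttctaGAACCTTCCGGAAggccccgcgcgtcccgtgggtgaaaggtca

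Library totals ran from 10.9 to 19.6 M expected counts. The 5xFAD libraries at 1 month held longer transcripts: the mean transcript length behind a count was 4193 to 4225 nt there, against 3577 to 3787 nt in WT at 1 month, 3696 to 4016 nt in WT at 6 months and 3630 to 3726 nt in 5xFAD at 6 months. Ribosomal RNA took 1.11% and 0.446% of the counts in replicates 1 and 2 of 5xFAD at 6 months and 0.325% in replicate 2 of WT at 1 month, and at most 0.149% elsewhere. The rod markers Gnat1, Pde6a, Pde6b, Sag and Nrl were abundant in every library (at least 1330 CPM each; CPM are TMM-scaled counts relative to library size). Summed Müller glia markers were 2500 to 2670 CPM in WT and 2440 to 2720 in 5xFAD at 1 month, then 2930 to 3220 and 2660 to 2800 at 6 months. Glul made up most of these sums. The libraries did not keep strand, so reads of Hspd1 and Hspe1, Hsp90b1 and 1810014B01Rik (10.3% of its exon bases), Tcp1 and Acat3, or Cct6a and Psph cannot be told apart where their exons overlap. In whole tissue, fewer cells of a type and less RNA per cell cannot be told apart.

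The share of all counts held by the 83 genes was 0.883, 0.824 and 0.879% in WT at 1 month, 0.962, 0.954 and 0.938% in 5xFAD at 1 month, 0.988, 0.996 and 1.08% in WT at 6 months, and 0.864, 0.911 and 1.02% in 5xFAD at 6 months. The WT libraries at 6 months all lay above those at 1 month in both genotypes, and the 5xFAD libraries at 6 months overlapped with all other groups. Per length, Hsp90aa1 (587 CPM per kb, mean of 12 libraries), the constitutive Hsp70 gene Hspa8 (489) and Hsp90ab1 (193) were the most abundant members. Hsp90b1, the Hsp90 of the reticulum, stood at 158 CPM per kb and its Hsp70 partner Hspa5 (BiP) at 86.3. The 8 tested chaperonin genes lay close together, between 59.9 (Cct2) and 103 (Cct5) CPM per kb. Hspd1 led the mitochondrial genes at 54.8, Dnajc5 the synaptic ones at 72.0, Dnajb6 the cytosolic J-domain genes at 65.1, Hspa4l the Hsp110 genes at 47.0 and Dnajc8, a splicing factor, those of the other Dnajc genes that have a length at 57.1. Among small heat shock genes only Hspb6 (61.4) and Hspb11 (13.2) passed 10, while Hspb1 (2.56) and Hspb8 (3.26) were rare. Hspa12a (50.4) led the remaining Hsp70-like genes.

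**Figure D1:**
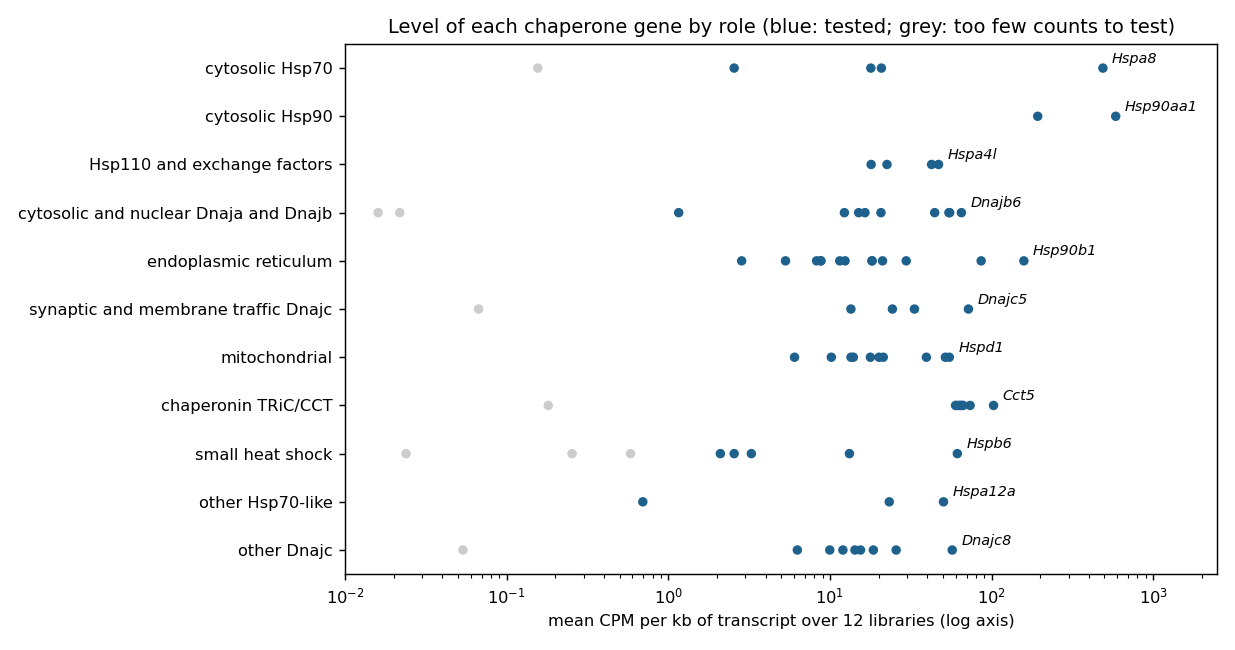
Each point is 1 chaperone gene, placed by its mean level over the 12 libraries in CPM per kb of transcript (log axis) and by its role; blue points were tested and grey points had too few counts. Dnajb8, Dnajc5b and Hspb9, at 0, and Dnajc7, without a length, are not drawn. Hsp90aa1 at 587 and Hspa8 at 489 CPM per kb stand to the right of all other genes.

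In WT, all called chaperone genes rose with age. Of the 71 tested genes, 14 rose from 1 to 6 months and 0 fell, where 6.01% of all 16233 tested genes rose and 4.49% fell (edgeR quasi-likelihood test, Benjamini-Hochberg adjusted p below 0.05). At an unadjusted p below 0.05, 23 were higher and 0 lower, and the DESeq2 Wald test called 15 and 0. The shares of all genes under these settings are not given here, so these counts have none to be set beside. The median log2 change of the 71 genes was 0.10, against -0.01 over all genes, and 8 of the 14 kept their call whichever of the 12 libraries was left out. They covered the heat-inducible Hsp70 genes, Hspa8, Hsp90ab1, Hsp110 genes, cytosolic J-domain genes, the reticulum and the synaptic co-chaperones.

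The stress-inducible Hsp70 gene Hspa1a (ENSMUSG00000091971; chromosome 17, 34969190 to 34972156, GRCm38 as all gene positions here) stood at 42.0, 52.7 and 43.1 CPM in young WT libraries and at 84.8, 81.1 and 74.3 in those of 6 months. The groups did not overlap, and the gene rose by a log2 fold change of 0.80 ± 0.12 (SE; adjusted p 0.000137). Hspa1b, its near-identical neighbour (34956436 to 34959238), stood at 30.4, 39.5 and 61.5 CPM at 1 month and 71.4, 63.7 and 61.6 at 6 months, a rise of 0.58 ± 0.17 (adjusted p 0.033). Replicate 3 at 1 month lay just under the lowest 6-month library, and this call was lost without replicate 1 or 2 of either WT group (adjusted p up to 0.142). Reads shared by the copies can be placed in either, so the genes were also summed, an alternative chosen after seeing the data: the sum rose by 0.70 ± 0.12 (adjusted p 0.000492).

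Hspa8, which also strips clathrin from vesicles, went from 845, 887 and 876 CPM at 1 month to 1251, 1293 and 1524 at 6 months, with no overlap. It rose by 0.64 ± 0.10 (adjusted p 0.000251). Hsph1, an Hsp110 exchange factor, showed the largest called rise, from 52.3, 58.4 and 51.4 to 93.9, 94.6 and 111 CPM (0.89 ± 0.16, adjusted p 0.00135). Hsp90ab1 rose by 0.27 ± 0.08 (adjusted p 0.0354), and Hsp90aa1 was at 0.31 ± 0.10 (adjusted p 0.0523), just outside the threshold.

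Of the 9 tested cytosolic and nuclear Dnaja and Dnajb genes, 3 rose. Dnajb2, a neuronal J-domain protein that steers clients to the proteasome, went from 77.7, 89.3 and 85.7 to 107, 108 and 124 CPM (0.43 ± 0.10, adjusted p 0.00845). Dnajb4 rose by 0.50 ± 0.14 (adjusted p 0.0229), and Dnajb1, the main partner of inducible Hsp70, by 0.42 ± 0.13 (adjusted p 0.0388). Dnaja1 (0.24 ± 0.10, adjusted p 0.137) and Dnajb6 (0.08 ± 0.10, adjusted p 0.698) did not pass.

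In the reticulum 3 of 13 genes rose. Hspa5 (chromosome 2, 34771970 to 34777547) went from 180, 183 and 211 to 252, 242 and 318 CPM (0.50 ± 0.10, adjusted p 0.00262), and Hsp90b1 (chromosome 10, 86690209 to 86705509) from 363, 332 and 375 to 499, 502 and 570 CPM (0.55 ± 0.10, adjusted p 0.00148). Dnajb14, a J-domain protein of the reticulum membrane (chromosome 3, 137867675 to 137916557), went from 89.2, 63.4 and 79.2 to 124, 130 and 112 CPM (0.66 ± 0.12, adjusted p 0.00086). None of these 3 genes had overlapping groups. Dnajc3, which also has an ER stress element, was at 0.32 ± 0.13 (adjusted p 0.118), and Dnajb9 at 0.10 ± 0.16 (adjusted p 0.765).

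Among synaptic and membrane traffic genes, Dnajc13 (RME-8), which sorts endosomal cargo, rose by 0.54 ± 0.10 (adjusted p 0.0018) and the clathrin-uncoating auxilin gene Dnajc6 by 0.36 ± 0.12 (adjusted p 0.0466), while Dnajc5 was at -0.04 ± 0.09. Hspa4 rose by 0.31 ± 0.10 (adjusted p 0.0379). No mitochondrial, chaperonin or small heat shock gene passed in WT. The calls of Dnajb1, Dnajb4, Dnajc6, Hsp90ab1, Hspa1b and Hspa4 were each lost when some single library was left out, with adjusted p up to 0.124, 0.112, 0.284, 0.0765, 0.142 and 0.197. The count went to 9 without replicate 2 of WT at 1 month, or without replicate 1 or 2 of WT at 6 months. In the same comparison 3 of 5 Müller glia markers and 2 of 11 immediate early genes, which react to handling, were higher. The immediate early genes summed to 139 to 213 CPM in WT at 1 month and 174 to 179 at 6 months, none of the 11 being at 0 in a whole group, and their part in the result was not tested.

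At 1 month, 12 of the 71 genes were higher and 4 lower in 5xFAD than in WT, where 10.7% of all genes were higher and 8.91% lower. The median log2 difference was 0.00, against -0.04 over all genes. The higher genes were mostly reticulum genes (5 of 13), synaptic and traffic genes (4 of 4 tested) and Hsp110 genes (2 of 4).

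All 4 tested synaptic and traffic genes passed. Dnajc6 had 234, 210 and 229 CPM in 5xFAD against 149, 104 and 148 in WT (0.75 ± 0.12, adjusted p 9.56e-05). Dnajc13 (chromosome 9, 104151282 to 104262930) had 116, 123 and 121 CPM in 5xFAD against 87.5, 70.7 and 77.3 in WT (0.61 ± 0.10, adjusted p 0.000212). Neither gene had overlapping groups. Dnajc5, the cysteine string protein of synaptic vesicles, had 520, 466 and 484 CPM in 5xFAD against 369, 351 and 443 in WT (0.34 ± 0.09, adjusted p 0.0102). Dnajc27, a small GTPase with a J domain, was higher by 0.30 ± 0.10 (adjusted p 0.0387).

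The reticulum gene Dnajb14 showed the largest of the 12 rises, with 146, 146 and 150 CPM in 5xFAD against 63.4 to 89.2 CPM in WT (0.93 ± 0.12, adjusted p 1.24e-05). Hsp90b1 read 495, 449 and 496 CPM in 5xFAD against 332 to 375 in WT (0.43 ± 0.10, adjusted p 0.00499). Hspa5 read 238, 241 and 225 CPM in 5xFAD against 180 to 211 in WT (0.29 ± 0.10, adjusted p 0.0427). Dnajc3, which restrains the kinase PERK, read 57.9, 48.3 and 48.5 CPM against 35.9 to 42.1 (0.44 ± 0.13, adjusted p 0.0183). These last 3 genes are those with an ER stress element in the promoter, and the call of Dnajc3 was lost when the trend on length and GC content, described further on, was removed (0.13, adjusted p 0.59). Of the 4 genes that matched the heat shock element as searched, Dnajb6 was lower. Hspd1 (0.05, adjusted p 0.806), Hspe1 (-0.42, adjusted p 0.0975) and Hsph1 (0.31, adjusted p 0.187) did not pass. Hspa1a, which was higher, is not among these 4, and the part of either element was not tested. Dnajc1 was higher by 0.52 ± 0.17 (adjusted p 0.0332), while Dnajb9, a target of the IRE1 branch, stood at -0.09 ± 0.16 and Dnajb11 at -0.02 ± 0.11.

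Hspa4l read 497, 512 and 461 CPM in 5xFAD against 288 to 347 in WT (0.62 ± 0.10, adjusted p 9.65e-05), and Hspa4 was higher by 0.35 ± 0.10 (adjusted p 0.0119). Hspa1a read 55.7, 61.2 and 65.5 CPM in 5xFAD against 42.0 to 52.7 in WT (0.41 ± 0.12, adjusted p 0.0169), and its sum with Hspa1b did not pass (0.27 ± 0.12, adjusted p 0.105). Hspa8 (0.23 ± 0.10, adjusted p 0.108), Hsp90aa1 (0.21 ± 0.10, adjusted p 0.152) and Hsph1 (0.31 ± 0.16, adjusted p 0.187) did not pass.

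Lower in 5xFAD at 1 month were Dnajb6, Hspb6, Hspb11 and Dnajc7. Dnajb6, a J-domain protein that holds back aggregation, read 92.1, 97.5 and 93.1 CPM against 113, 131 and 111 in WT (-0.33 ± 0.10, adjusted p 0.028). Hspb6 read 59.6, 54.0 and 76.9 CPM against 94.5, 101 and 77.0 (-0.52 ± 0.14, adjusted p 0.0114), and its highest 5xFAD library lay just below the lowest WT library. Dnajc7, a co-chaperone of Hsp70 and Hsp90, read 150, 137 and 136 CPM against 176, 175 and 162 (-0.28 ± 0.09, adjusted p 0.0318). Hspb11, an intraflagellar transport subunit in spite of its name, read 6.51, 4.97 and 5.74 CPM against 11.3, 10.8 and 13.1 (-1.03 ± 0.32, adjusted p 0.0231), with no overlap.

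Of these 16 calls, 5 stood whichever library was left out: Dnajb14, Dnajc6, Dnajc13, Hspa4l and Hsp90b1. The others were lost at least once, with adjusted p up to 0.17 (Dnajc27, without replicate 2 of WT at 1 month), and Hspa5 was lost in 5 of 12 such fits (up to 0.148). The count went to 8 without replicate 2 of WT at 1 month or replicate 2 or 3 of 5xFAD at 1 month, and to 9 without replicate 1 of the latter. Without the 3 libraries richest in ribosomal RNA it was 10, and Hspa5 (adjusted p 0.122), Dnajc3 (0.0576) and Dnajc5 (0.0562) were among those lost. Beside the genotype, summed pigment epithelium markers were lower in 5xFAD at 1 month (24.9 to 35.5 CPM, against 69.9 to 146 in WT, with 4 of 6 tested markers lower), and summed endothelial markers higher (190 to 205, against 117 to 131, with 1 of 4 higher). Kdr made up most of the endothelial sum (172 to 185 against 106 to 111), and Cldn5 and Pecam1 overlapped between the genotypes. Summed bipolar markers were 1090 to 1160 CPM in 5xFAD and 885 to 1000 in WT, with 2 of 4 higher. Of 5 Müller glia markers 2 were higher and 1 lower in 5xFAD. None of the markers of these lists was at 0 in a whole group, and their part in these results was not tested.

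**Figure D2:**
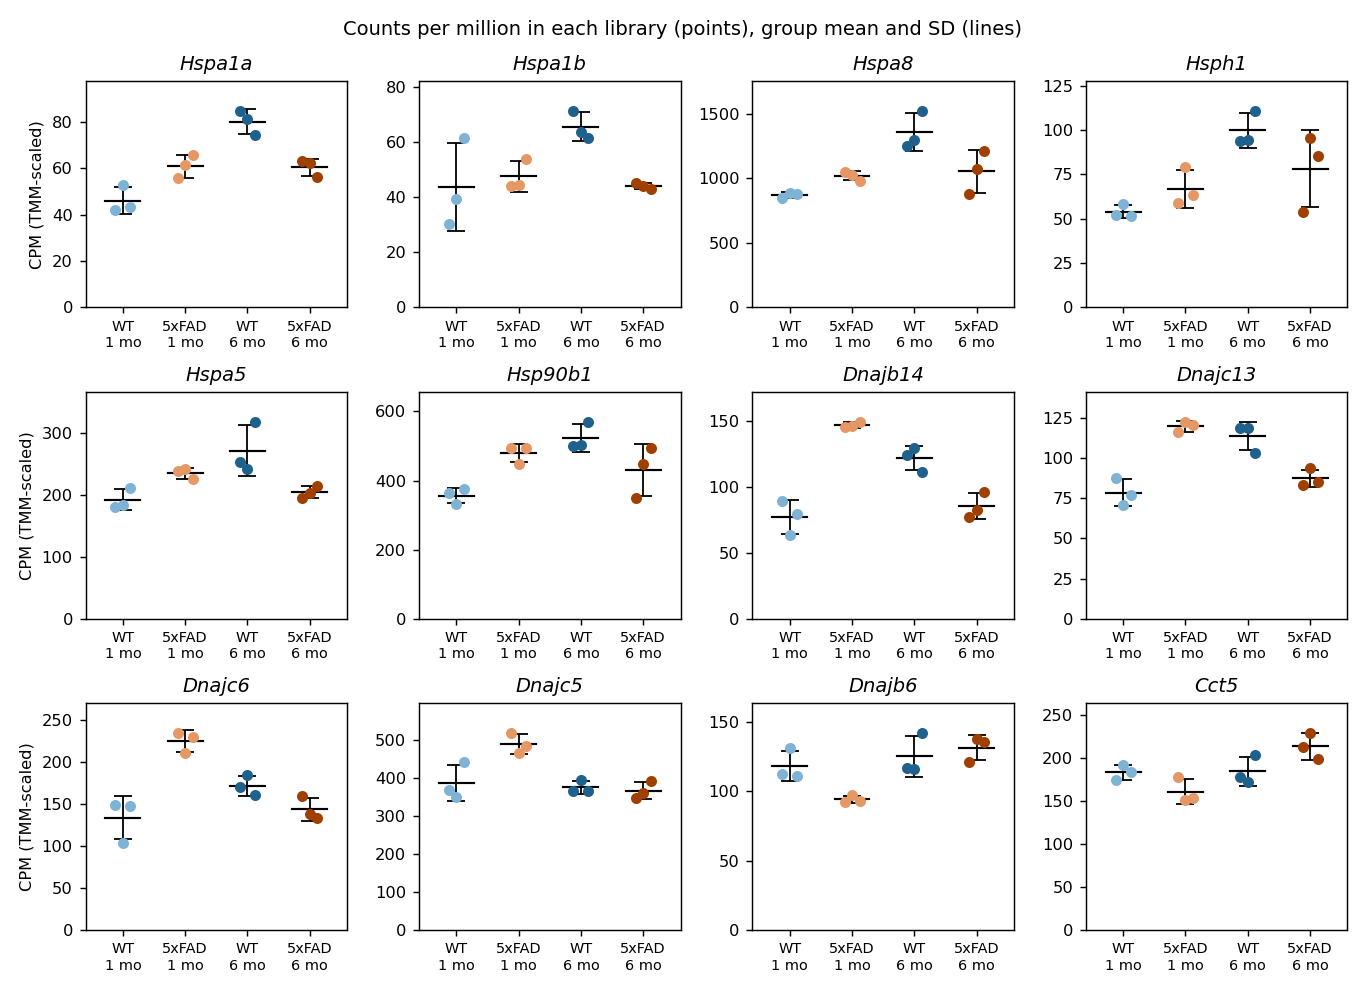
Each panel shows 1 gene in CPM from 0, with 1 point per library, the group mean as a bar and the SD as whiskers (n = 3 per group). Hspa1a, Hspa5 and Dnajb14 stand higher in 5xFAD than in WT at 1 month and lower at 6 months.

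None of the 71 genes was higher in 5xFAD than in WT at 6 months, and 6 were lower. Of all genes, 2.48% were higher and 3.89% lower at that age. At an unadjusted p below 0.05, 6 were higher and 16 lower, and the DESeq2 Wald test called 2 higher and 7 lower. For these settings, too, the shares of all genes are not given here. The median log2 difference was -0.03, against 0.00 over all genes.

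The 6 genes were 3 cytosolic Hsp70 genes, Hspa5, Dnajb14 and Dnajc13. Hspa1a read 62.9, 62.1 and 56.1 CPM in 5xFAD against 74.3 to 84.8 in WT (-0.41 ± 0.12, adjusted p 0.0345), Hspa1b 45.2, 44.0 and 43.0 against 61.6 to 71.4 (-0.57 ± 0.17, adjusted p 0.0486), and the log2 difference of their sum was -0.48 ± 0.12 (adjusted p 0.0135). Hspa8 read 879, 1071 and 1211 CPM in 5xFAD, all below the 1251 to 1524 of WT (-0.36 ± 0.10, adjusted p 0.0288). Hspa5 read 195, 203 and 214 CPM against 242 to 318 (-0.41 ± 0.10, adjusted p 0.0158).

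Dnajb14 read 77.1, 82.6 and 96.6 CPM in 5xFAD at 6 months against 112 to 130 in WT (-0.51 ± 0.12, adjusted p 0.00929), and Dnajc13 83.2, 93.8 and 85.4 against 104 to 119 (-0.38 ± 0.10, adjusted p 0.0266). Hsp90b1 (-0.28 ± 0.10, adjusted p 0.105), Hsp90ab1 (-0.25 ± 0.08, adjusted p 0.0719) and Hsph1 (-0.35 ± 0.16, adjusted p 0.201) lay lower without passing. The 8 chaperonin genes lay at 0.00 to 0.33, with none called (Cct7, 0.33 ± 0.11, adjusted p 0.065; Cct4, 0.30 ± 0.10, adjusted p 0.0656).

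None of the 6 calls held in all fits that left out a library. The count was 1 without replicate 2 of WT at 6 months, 2 without replicate 1 or 2 of 5xFAD at 6 months, 3 without replicate 1 of WT at 6 months, and 11 without replicate 3 of 5xFAD at 6 months. Without replicate 3 of WT at 6 months 3 genes were called higher and 3 lower. Without the 3 libraries richest in ribosomal RNA, which leaves 5xFAD at 6 months with 1 library assumed to vary like the other groups, 0 of the 6 passed (adjusted p 0.0755 for Hspa1a to 0.57 for Hspa8). In a fit of the 6 libraries compared, 2 passed. Markers of other cells also stood apart at this age: summed endothelial markers were 76.7 to 90.3 CPM in 5xFAD against 108 to 146 in WT (1 of 4 lower), bipolar markers 867 to 882 against 895 to 1110 (1 of 4 lower), and 1 of 5 Müller glia markers was lower. Of 6 rod markers 2 were called higher. Gnat1 (12300 to 12900 against 10700 to 11700 CPM) and Nrl (1800 to 1990 against 1330 to 1550) were at higher levels in 5xFAD. Pde6a (2420 to 2660 against 2510 to 2660), Pde6b (2670 to 2900 against 2420 to 2710) and Sag (5090 to 5960 against 4820 to 6130) overlapped between the genotypes. None of these markers was at 0 in a whole group, and their part in the result was not tested.

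Ageing in 5xFAD moved 9 genes up and 9 down (12.7% each). These shares were close to those of all genes, of which 10.8% rose and 12.4% fell. The comparison shares no library with ageing in WT, and it uses the 5xFAD libraries at 1 month that also enter the genotype comparison above. The genes that fell include all 4 synaptic and traffic genes: Dnajc6 (-0.65 ± 0.12, adjusted p 0.000313), Dnajc13 (-0.46 ± 0.10, adjusted p 0.00243), Dnajc27 (-0.49 ± 0.10, adjusted p 0.00133) and Dnajc5 (-0.42 ± 0.09, adjusted p 0.00202). Dnajc5 read 348, 362 and 392 CPM at 6 months. Dnajb14 fell by 0.78 ± 0.12 (adjusted p 4.55e-05) and Hspa4l by 0.60 ± 0.10, to 305, 296 and 366 CPM (adjusted p 0.0001). The cytosolic Hsp70 genes did not pass, with Hspa1a at -0.01 ± 0.12 and Hspa8 at 0.05 ± 0.10. In this comparison 3 of 4 endothelial markers fell (sum 190 to 205 CPM at 1 month, 76.7 to 90.3 at 6 months), as did 2 of 4 bipolar markers (1090 to 1160, then 867 to 882), and 3 of 6 tested pigment epithelium markers rose (24.9 to 35.5, then 49.9 to 84.7). None of them was at 0 in a whole group, and their part in the result was not tested.

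Chaperonin genes were among those that rose in 5xFAD with age. TRiC is a double ring of different subunits, and 4 of its 8 tested genes passed: Cct5 (0.41 ± 0.10, adjusted p 0.00338), Cct4 (0.36 ± 0.10, adjusted p 0.0101), Cct2 (0.31 ± 0.10, adjusted p 0.0318) and Tcp1 (0.31 ± 0.11, adjusted p 0.0421). Cct5 went from 178, 151 and 153 to 213, 229 and 198 CPM, with no overlap. Cct3 (0.28 ± 0.11, adjusted p 0.0609), Cct7 (0.25 ± 0.11, adjusted p 0.0913), Cct8 (0.13 ± 0.11) and Cct6a (0.09 ± 0.10) lay above 0 and did not pass. In WT the same 8 genes lay between -0.18 and 0.15 with age and none passed.

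Dnajc28 rose by 0.81 ± 0.12 in 5xFAD (31.9, 36.6 and 37.4 to 65.5, 58.8 and 61.1 CPM, adjusted p 5.58e-05), the only mitochondrial gene called. Hspb6 rose by 0.58 ± 0.14 (adjusted p 0.00454), Dnajc2, a ribosome-bound J-domain protein, by 0.54 ± 0.16 (adjusted p 0.0139), Dnajb6 by 0.48 ± 0.10 (adjusted p 0.00169) and Dnajc8 by 0.40 ± 0.10 (adjusted p 0.00673). Hspb1 and Hspb8 passed in none of the comparisons. With age in 5xFAD Hspd1 (0.05 ± 0.10), Hspe1 (0.45 ± 0.18, adjusted p 0.0661) and Hspa9 (0.17 ± 0.09, adjusted p 0.203) did not pass. With each library left out in turn, 11 of the 18 calls held each time, and Cct2, Cct4, Tcp1, Dnajc2, Dnajc16, Dnajc18 and Hspa4 did not. Their highest adjusted p-values were 0.102, 0.0599, 0.21, 0.0774, 0.131, 0.134 and 0.158. When the 3 libraries with the most ribosomal RNA were left out, 11 genes were called, and Cct5 (adjusted p 0.108), Cct2 (0.0595), Tcp1 (0.13), Dnajc5 (0.101) and Hspb6 (0.26) were not.

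The interaction asks whether the genotype difference changed between the ages. It was called for 24 of the 71 genes, 17 with a lower and 7 with a higher 5xFAD to WT ratio at 6 months, where 13.3% and 11.7% of all genes were called lower and higher. The median over the 71 genes was -0.12, against 0.06 over all genes. Lower were Dnajb14 (-1.44 ± 0.16, adjusted p 1.6e-06), Dnajc6 (-1.01 ± 0.16, adjusted p 8.32e-05), Dnajc13 (-0.99 ± 0.14, adjusted p 2.6e-05), Hspa1a (-0.81 ± 0.17, adjusted p 0.000809), Hspa4l (-0.76 ± 0.14, adjusted p 0.000259), Hsp90b1 (-0.71 ± 0.15, adjusted p 0.000954), Hspa5 (-0.70 ± 0.14, adjusted p 0.000814) and Hspa8 (-0.59 ± 0.14, adjusted p 0.00307). With Hspa4 and Dnajc27 these made up the 10 calls that stood whichever library was left out. Removal of the length and GC trend nevertheless turned the direction of Hspa4l (0.064, adjusted p 0.706), and that of Dnajc5 (-0.37 before and 0.13 after, adjusted p 0.459). Dnajc13 (-0.32, adjusted p 0.0705), Hspa4 (-0.21, adjusted p 0.204) and Dnajc27 (-0.16, adjusted p 0.422) also lost their calls there. Dnajc3, the remaining gene with an ER stress element, was at -0.56 ± 0.18 (adjusted p 0.0247, lost in 4 of 12 fits that left out a library). With the length and GC trend removed it was at -0.07 (adjusted p 0.831).

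Higher in the interaction were Hspb6 (0.67 ± 0.20, adjusted p 0.0153), Dnajc28 (0.59 ± 0.17, adjusted p 0.014), Cct7, Cct5, Cct4, Dnajb6 and Dnaja2. These 7 calls were each lost without at least 1 library, with adjusted p up to 0.211 (Dnajb6, without replicate 2 of WT at 6 months). The number of higher calls was 0 without replicate 2 and 1 without replicate 1 of WT at 6 months, 1 without replicate 1 of WT or replicate 2 of 5xFAD at 1 month, and 9 without replicate 3 of WT at 6 months. It was 2 without replicate 2 of WT or replicate 3 of 5xFAD at 1 month or replicate 1 of 5xFAD at 6 months, and 4 without replicate 3 of WT or replicate 1 of 5xFAD at 1 month or replicate 3 of 5xFAD at 6 months. With a filter of at least 1 count over all libraries together it was 2, and with a filter of 1 CPM in 3 libraries or with a replicate block 3. The count of all interaction calls went to 13 without replicate 2 of 5xFAD at 1 month, to 14 and 15 without replicates 2 and 1 of WT at 6 months, and to 15 without replicate 2 of WT at 1 month. Without the 3 libraries richest in ribosomal RNA it was 10.

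**Figure D3:**
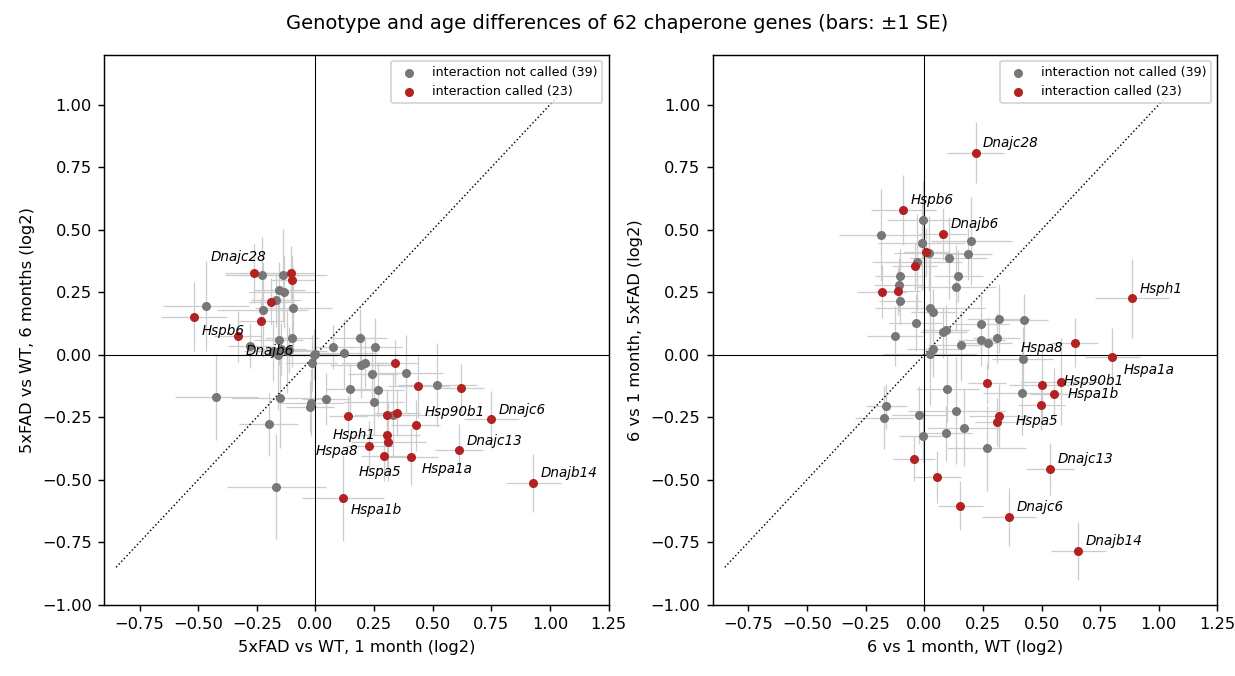
Each point is 1 of 62 chaperone genes (the 9 with an interaction SE of 0.35 or more are not drawn), with SE bars. The left panel sets the log2 difference between 5xFAD and WT at 6 months against that at 1 month, and the right panel the change with age in 5xFAD against that in WT; the dotted line marks equal values on both axes, and red marks the 23 with a called interaction, Dnajb14 lying farthest out.

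**Figure D4:**
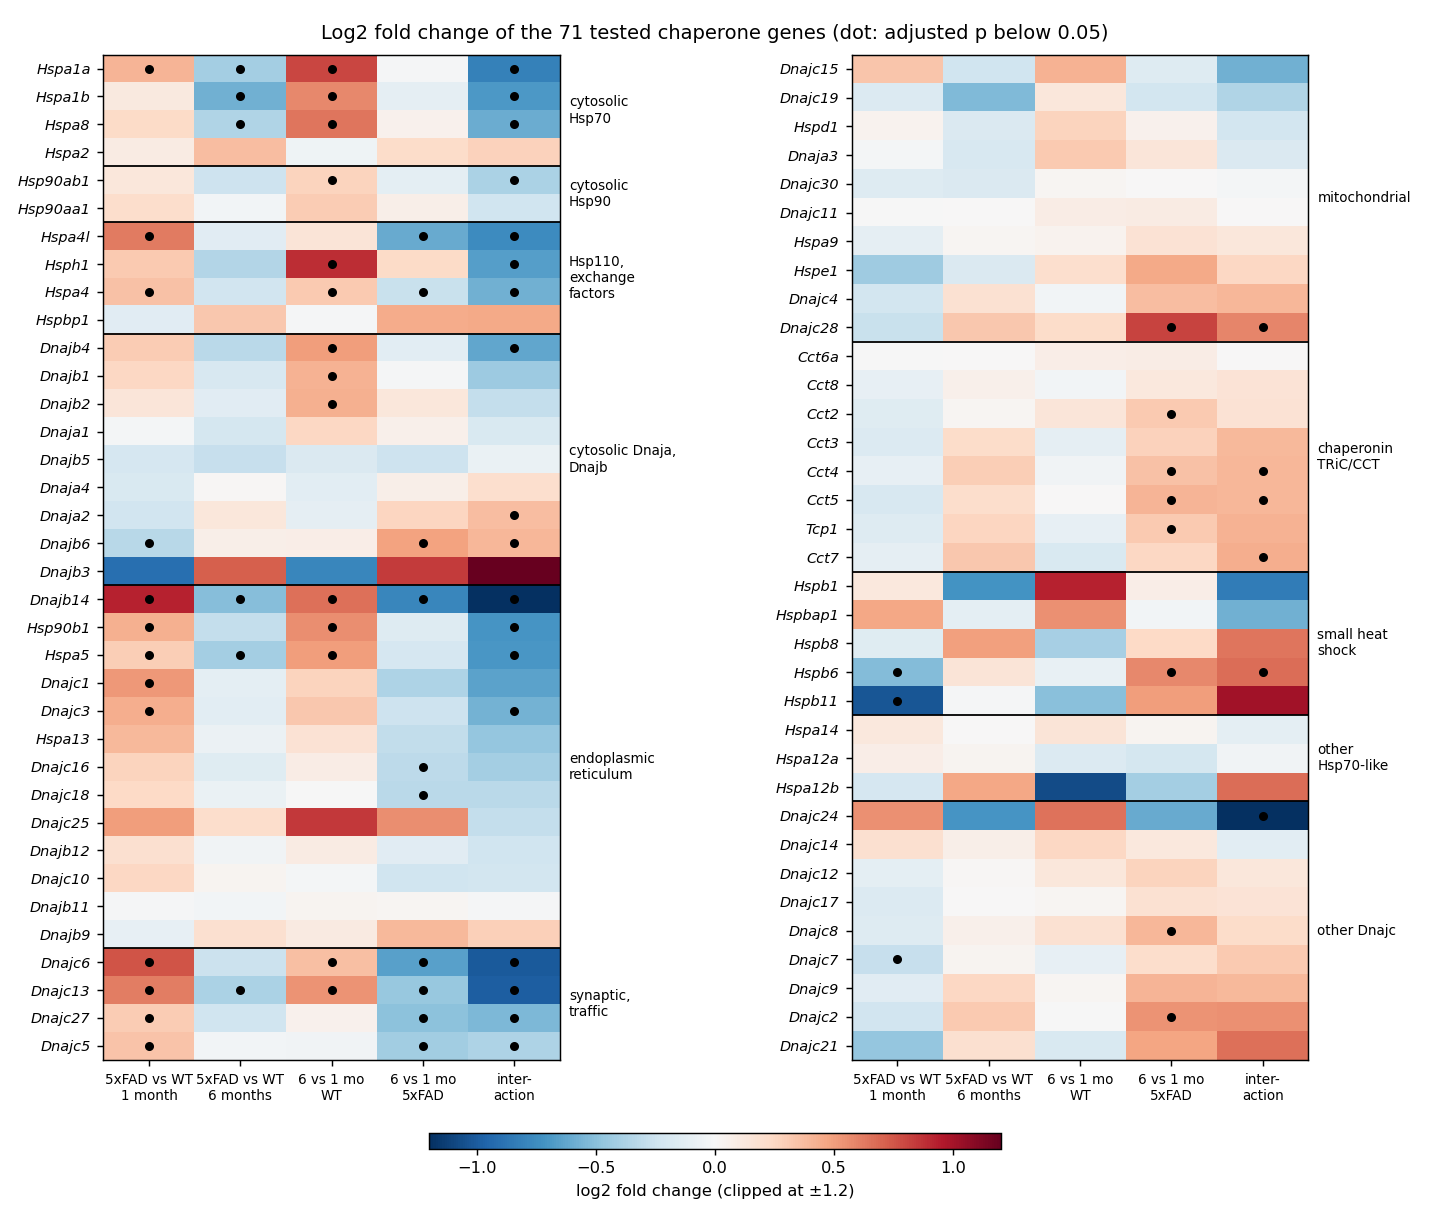
Colour gives the log2 fold change of each of the 71 tested genes (rows, by role) in the 5 comparisons (columns), clipped at ±1.2, and a dot marks an adjusted p below 0.05. Dots in the column for ageing in WT all lie on red cells. The cells of the synaptic and traffic genes are red at 1 month and blue with age in 5xFAD.

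Transcript length moved with these differences. Over the 70 tested members with a length, longer genes had higher log2 differences between 5xFAD and WT at 1 month (Spearman correlation 0.66 across genes, which share the libraries) and lower ones with age in 5xFAD (Spearman correlation -0.65). In WT ageing the Spearman correlation was 0.27. At 1 month, 9 of the 15 members over 3574 nt, the upper bound of the middle of 3 equal length classes of all tested genes, were higher in 5xFAD and 0 lower, while 0 of the 22 in the shortest class (up to 2063 nt) were higher and 3 lower. Over all genes the longest class had 1445 of 5355 higher and 129 lower, and the shortest 68 of 5356 higher and 984 lower, a larger share of lower genes than among the members. Dnajb14 (9382 nt), Hspa4l (7894 nt), Dnajc13 (7417 nt), Dnajc5 (5630 nt), Dnajc3 (5141 nt) and Dnajc6 (5044 nt) are long, whereas Hspa5 (2609 nt), Hspa8 (2198 nt) and Hsp90b1 (2825 nt) are of middle length.

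When each library's trend on length and GC content was removed, some calls stayed and others did not. The shares of all genes called after the removal are not given here, so the counts that follow have none to be set beside. At 1 month Dnajb14 (0.40, adjusted p 0.00251), Dnajc6 (0.49, adjusted p 0.00212), Hsp90b1 (0.37, adjusted p 0.00472), Hspa1a (0.48, adjusted p 0.00332) and Hspa5 (0.29, adjusted p 0.044) kept their calls. Dnajc13 (0.20, adjusted p 0.153), Hspa4l (0.10, adjusted p 0.409), Dnajc5 (0.05, adjusted p 0.738), Dnajc3 (adjusted p 0.59) and Dnajb6 (-0.22, adjusted p 0.166) were among the 10 of 16 that lost theirs, and Dnajc7 had no length to be tested with. Hspa8, Dnajb2, Dnaja2 and Dnajc28 passed in addition, giving 7 higher and 2 lower. The values of Dnajb14 and Dnajc6 moved by over 1.5 times. Ageing in WT kept 12 of its 14 calls, with Hspa1a at 0.87 (adjusted p 5.4e-06) and Hspa8 at 0.63 (adjusted p 8.46e-06), lost Dnajc6 and Hspa4, and gained Hspa12a as lower (-0.32, adjusted p 0.00392).

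At 6 months 9 genes were called after removal of the trend, 5 higher and 4 lower, against 0 and 6 before. Hspa1a, Hspa1b, Hspa5 and Hspa8 kept their calls (adjusted p 0.0201, 0.0358, 0.0186 and 0.0111), Dnajb14 and Dnajc13 did not (0.119 and 0.453), and Cct4 (0.33, adjusted p 0.00723), Cct7 (0.36, adjusted p 0.016), Tcp1, Dnajc28 and Hspa12a were higher. With age in 5xFAD the split of 9 higher and 9 lower became 7 and 2, and of the 4 synaptic and traffic genes only Dnajc6 passed (-0.36, adjusted p 0.0158). Of the 4 chaperonin genes Cct4 (0.26, adjusted p 0.0271) and Cct5 (0.30, adjusted p 0.0206) kept their calls, and Cct2 (0.21, adjusted p 0.169) and Tcp1 (0.24, adjusted p 0.104) did not. The interaction kept 12 of its 24 calls, among them Hspa1a (-0.86), Hspa5 (-0.65), Hspa8 (-0.64), Dnajb14 (-0.61), Hsp90b1 (-0.59) and Dnajc6 (-0.56). Dnajc3, Dnajc13, Dnajc27, Hspa4, Cct5, Cct7, Dnajb6 and Hspb6 were among those lost.

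**Figure D5:**
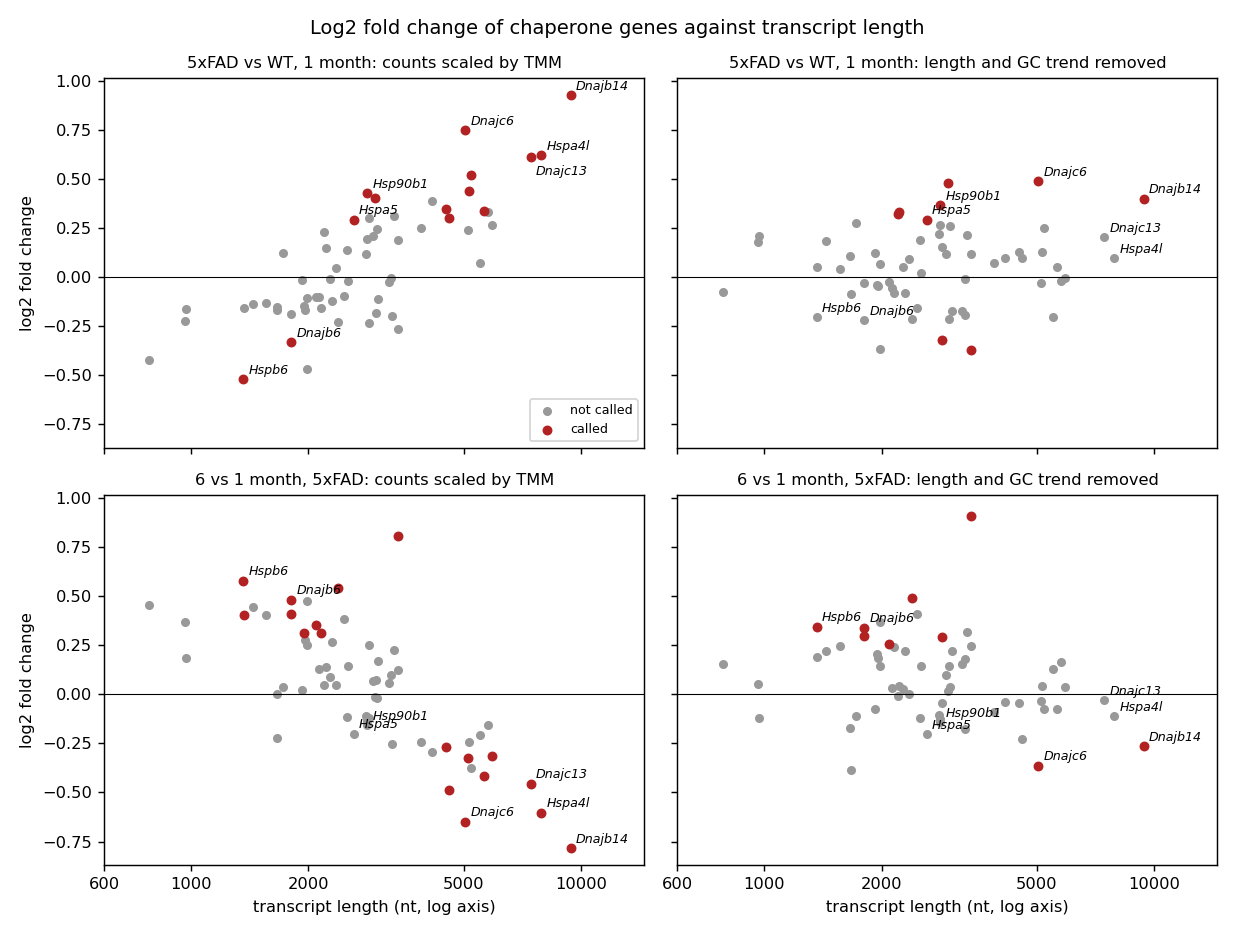
Log2 fold change against transcript length (log axis) for 61 chaperone genes, at 1 month between genotypes (top) and with age in 5xFAD (bottom), before (left) and after (right) removal of each library's trend on length and GC content; red points were called. The slope on the left is smaller on the right, where with age in 5xFAD the median is still 0.17 in the shortest and -0.04 in the longest class, and where Dnajb14 and Dnajc6 are still called in both comparisons and Dnajc13 and Hspa4l are not.

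The study also compared retained introns, so the share of each gene's counts from retained-intron transcripts was tested for the 33 members with enough counts of both kinds. Of all 4774 genes tested, 3% were called at 1 month and 0.189% at 6 months. At 1 month 1 of the 33 was called: Hspa4l held 3.24, 1.81 and 2.74% retained-intron counts in WT and 0.838, 0.988 and 1.3% in 5xFAD (log2 odds ratio -1.32 ± 0.305 (SE), adjusted p 0.0439). The groups did not overlap, the share being lower where the gene was higher. The call was lost in 10 of 12 fits that left out a library (adjusted p up to 0.154; it stood without replicate 3 of WT or replicate 1 of 5xFAD at 6 months), and under limma on the logit of the share (adjusted p 0.0823).

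The next smallest p at 1 month were those of Hspa9 (1.87 ± 0.52, adjusted p 0.0819) and Hsp90aa1, whose share was 0.389, 0.34 and 0.416% in WT and 1.0, 0.634 and 1.01% in 5xFAD (1.19 ± 0.35, adjusted p 0.0919). Hsp90aa1 passed when at least 50 counts were asked for (adjusted p 0.0416). At 6 months 0 of 33 passed the edgeR test or limma, and 5 had an unadjusted p below 0.05 in edgeR. Without replicate 3 of 5xFAD at 6 months 1 passed, Hsp90ab1 (adjusted p 0.0379). Dnajb5, with 48.6, 49.2 and 38.5% in WT and 13.1, 28.7 and 22.1% in 5xFAD, had the smallest p (-1.68 ± 0.54, adjusted p 0.224), and its WT libraries all lay above its 5xFAD libraries. Hsp90ab1 and Dnajc19 came next (adjusted p 0.306 and 0.321).

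The genes around the chaperones were a list of 65 tested partners: heat shock factors, co-chaperones, prefoldin, and sensors of the unfolded protein response. At 1 month 5 were higher and 14 lower in 5xFAD, beside the 10.7% and 8.91% of all genes. After removal of the length and GC trend 2 were higher and 7 lower, of which 7 were among the 19. The share of all genes after that removal is not given here. The count was 8 without replicate 2 of WT at 1 month and 10 to 11 without any one library of 5xFAD at 1 month. Prefoldin hands nascent actin and tubulin to the chaperonin, and 4 of its 6 subunit genes were lower. Pfdn5 read 85.5, 73.6 and 77.3 CPM in 5xFAD against 134, 148 and 118 in WT (-0.76 ± 0.11, adjusted p 6.79e-05), and Pfdn2 34.9, 34.1 and 35.5 against 54.3, 56.0 and 52.4 (-0.64 ± 0.13, adjusted p 0.00111). Stub1, the ubiquitin ligase that disposes of Hsp70 clients, was lower by -0.62 ± 0.11 (adjusted p 0.000243), the Hspa5 exchange factor Sil1 by -0.73 ± 0.20 (adjusted p 0.0117), Fkbp8 by -0.42 ± 0.11 (adjusted p 0.0106) and the mitochondrial protease Lonp1 by -0.39 ± 0.10 (adjusted p 0.00848).

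Among reticulum partners the sensors Atf6 (0.61 ± 0.11, adjusted p 0.000395) and Ern1, which encodes IRE1 (0.51 ± 0.16, adjusted p 0.0243), and the Hsp110-like Hyou1 (0.39 ± 0.12, adjusted p 0.0232) were higher at 1 month. The third sensor gene, Eif2ak3 (PERK), was at 0.07 ± 0.13 (adjusted p 0.746), and the response genes Xbp1 (-0.28, adjusted p 0.135), Atf4 (-0.22, adjusted p 0.122), Ddit3 (-0.38, adjusted p 0.118) and Herpud1 (-0.12, adjusted p 0.561) lay below 0 without passing. Atf6 read 132, 120 and 131 CPM in 5xFAD against 73.1 to 91.1 in WT. Sugt1 was higher too (0.40 ± 0.12, adjusted p 0.0176), but its direction turned when the length and GC trend was removed (-0.043, adjusted p 0.873). Atf6 (0.21, adjusted p 0.125), Ern1 (0.16, adjusted p 0.498) and Hyou1 (0.28, adjusted p 0.117) lost their calls there, and Pfdn5 (-0.38, adjusted p 0.00401), Pfdn2 (-0.40, adjusted p 0.0297) and Stub1 (-0.30, adjusted p 0.0186) kept theirs. Atf6, Ern1 and Sugt1 have long transcripts (7246, 6895 and 6677 nt) and Pfdn5 a short one (819 nt). The lens crystallin gene Cryaa, itself a small heat shock protein, read 4.51, 39.3 and 12.7 CPM in 5xFAD and 0 to 0.27 in WT. Some other lens markers stood higher in 5xFAD at that age, with Cryba1 at 0.521 to 8.65 CPM, Crygs at 0.347 to 3.77 and Crybb2 at 0.521 to 13.4, against 0, 0 and at most 0.18 in WT. Bfsp2 overlapped between the genotypes, Crybb3 read 0 to 1.2 CPM in 5xFAD and 0.599 to 1.98 in WT, and Lim2 was at 0 in all libraries. The 10 genes of the list, Cryaa among them, summed to 6.51 to 71.2 CPM in 5xFAD and 1.43 to 3.23 in WT, and of the 2 with enough counts to test 1 was higher. Whether lens material entered those retinas was not tested.

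At 6 months 2 partners were higher and 1 lower in 5xFAD, beside 2.48% and 3.89% of all genes. The Hsp90 co-chaperone gene Ptges3 (p23) read 112, 111 and 135 CPM against 79.2, 88.1 and 90.6 in WT (0.48 ± 0.10, adjusted p 0.00727), Unc45a was higher by 0.38 ± 0.11 (adjusted p 0.0381), and Ern1 lower by -0.59 ± 0.16 (adjusted p 0.0256). After removal of the length and GC trend 6 were higher and 0 lower, again without a share of all genes given here. No call was made without replicate 1 or 2 of WT at 6 months, 1 without replicate 1 or 2 of 5xFAD, 8 without replicate 3 of WT and 10 without replicate 3 of 5xFAD at that age. With age 3 partners rose and 2 fell in WT (4.62% and 3.08%, below the 6.01% and 4.49% of all genes), and 15 rose and 5 fell in 5xFAD (23.1% and 7.69%, beside 10.8% and 12.4%). In the interaction 16 were higher and 8 lower, beside 11.7% and 13.3% of all genes. Pfdn5 (1.09 ± 0.16, adjusted p 2.49e-05) and Ptges3 (0.84 ± 0.15, adjusted p 0.000204) were among the higher, and Ern1 (-1.10 ± 0.22, adjusted p 0.000806), Atf6 (-0.92 ± 0.16, adjusted p 0.000135) and Hyou1 (-0.76 ± 0.17, adjusted p 0.00206) among the lower. With the length and GC trend removed, Ern1 (-0.49, adjusted p 0.0646) and Atf6 (-0.27, adjusted p 0.132) lost their interaction calls. Pfdn5 (0.62), Ptges3 (0.81) and Hyou1 (-0.52) kept theirs. The heat shock factor genes Hsf1 and Hsf2 were called in none of the 5 comparisons, while Hsf4 rose with age in 5xFAD (1.29 ± 0.36, adjusted p 0.012), from 3.73, 3.22 and 3.23 to 12.6, 5.82 and 6.53 CPM, and was called in no other.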

How the data were processed

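The authors deposited expected counts per gene and per transcript for 12 libraries. Reads were trimmed with Trim Galore 0.6.6, aligned with STAR 2.7.1a to GRCm38.p6 and counted with RSEM 1.3.3, per the submitters' processing notes, which also name DESeq2 1.32.0. The authors' annotation is not given in the sources used here, and GENCODE M21 supplied symbols, lengths and exons. Expected counts were rounded to whole numbers. All genes passing edgeR's expression filter by group were fitted together (edgeR 4.0.16, TMM, robust quasi-likelihood, 4 groups, 8 residual degrees of freedom), with Benjamini-Hochberg adjustment over all of them, and the method was tested on simulated data. SE is the log2 fold change over the root of F. The retained-intron share set retained-intron transcripts against the gene's other transcripts, for genes with a mean of at least 10 counts of each.

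Alternatives were other size factors, DESeq2 1.42.0, other filters, the compared groups alone, removal of each library's spline on length and GC content, and libraries left out. Genes were named by role, by the smallest p among called members and as a standing list. Among partners, Eif2ak3, Xbp1, Atf4, Ddit3, Herpud1, Hsf1, Hsf2 and Hsf4 lie outside that rule and were named after their values were seen. Members, lists and rules were chosen with earlier results of these data known. Replicate numbers did not pair samples: correlations of deviations ran from -0.085 to 0.062 for equal numbers and from -0.081 to 0.079 for unequal ones.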

Additional observations from a re-analysis of the deposited data

Results flagged for a closer look

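The interaction of genotype and age was called for 24 chaperone genes and for the 12 partner genes named here (edgeR, adjusted p below 0.05). For these the difference between 5xFAD and WT was not the same at 1 and 6 months. Of the 71 tested chaperone genes 23.9% were called lower and 9.86% higher, beside 13.3% and 11.7% of all genes. Of the 65 tested partners 8 were lower (12.3%) and 16 higher (24.6%), and not all of them are named here. Values below are the log2 difference at 6 months less that at 1 month.

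In the cytosol the ratio of 5xFAD to WT was lower at 6 months for Hspa1a (-0.81), Hspa1b (-0.69), Hspa8 (-0.59), Hsp90ab1 (-0.38), Hspa4 (-0.58), Hspa4l (-0.76), Hsph1 (-0.66) and Dnajb4 (-0.62), though that of Hspa4l turned to 0.064 with the length and GC trend removed. In the reticulum it was lower for Dnajb14 (-1.44), Hsp90b1 (-0.71), Hspa5 (-0.70) and Dnajc3 (-0.56), and among synaptic and traffic genes for Dnajc6 (-1.01), Dnajc13 (-0.99), Dnajc27 (-0.54) and Dnajc5 (-0.37, turning to 0.13 with that trend removed). The calls of Hspa4, Hsph1, Dnajb4, Dnajc3, Dnajc13 and Dnajc27 were also lost with that trend removed. Dnajc24, which serves the synthesis of diphthamide, was at -1.25 from about 88 counts a library.

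The ratio was higher at 6 months for Cct7 (0.43), Cct5 (0.40), Cct4 (0.40), Dnajb6 (0.40), Dnaja2 (0.37), Dnajc28 (0.59) and Hspb6 (0.67). Of these, Cct7, Cct5, Dnajb6 and Hspb6 lost their calls with the length and GC trend removed. Among partners the ratio was higher for Sil1 (1.10), Pfdn5 (1.09), Pfdn2 (0.95), Stub1 (0.88), Ptges3 (0.84) and Bag1 (0.82), and lower for Ern1 (-1.10), Atf6 (-0.92), Hyou1 (-0.76), Pdia6 (-0.57), Calr (-0.57) and Clpb (-0.48). With the length and GC trend removed, Ern1 (-0.49), Atf6 (-0.27), Clpb (-0.17) and Bag1 (0.48) lost their calls, and Pdia6 had no length to be tested with. The other partners named here kept theirs. No group had the 4 libraries needed to test for single outlying libraries.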

How the results depend on the processing

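Scaling by DESeq2 size factors or by plain library size, the Wald test of DESeq2 and both other expression filters kept each total of called chaperone genes within 1.5 times. The higher calls of the interaction, 7 in number, were 2 and 3 under the other filters and 3 with the replicate block. Removal of the length and GC trend gave 9 calls in place of 16 at 1 month, 9 in place of 18 with age in 5xFAD, 14 in place of 24 in the interaction, and for partners 9 in place of 19 at 1 month and 6 in place of 3 at 6 months. It turned the direction of Sugt1 at 1 month (-0.043), Dnajc16 with age in 5xFAD (0.039), and Dnajc5 (0.13) and Hspa4l (0.064) in the interaction. Without the 3 libraries richest in ribosomal RNA the counts were 10 at 1 month, 0 at 6 months (9 at an unadjusted p below 0.05 in edgeR), 11 with age in 5xFAD and 10 in the interaction, and for partners 1 at 6 months and 12 in the interaction. A fit of the compared groups alone called 2 chaperone genes and 1 partner at 6 months. For partners at 6 months the Wald test and the filter of at least 1 count over all libraries together each called 6. The cause of these changes was not tested.

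With each library left out in turn, called chaperone genes ranged from 8 to 18 at 1 month, 1 to 11 at 6 months, 9 to 17 with age in WT, 12 to 19 with age in 5xFAD and 13 to 26 in the interaction. Partners ranged from 8 to 21 at 1 month, 0 to 10 at 6 months and 16 to 28 in the interaction. For the retained-intron share the count of 1 at 1 month was 2 with at least 50 counts and 0 with limma, and 0 to 2 with a library left out; at 6 months it was 0 to 1.

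With a replicate block the chaperone counts were 15, 5, 13, 16 and 20 in the 5 comparisons in the order above, those of partners 19, 2 and 23, and limma with the replicate block called 0 retained-intron shares at either age. Among the named genes, 10 results lost their call under the block and none turned.

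Depth limits the 12 untested genes, each with at most 71 counts in all libraries, and rare members such as Hspb1 (2.56 CPM per kb). With 3 libraries a group, a missed threshold does not show that levels were alike.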
